A study of Arabidopsis thaliana with 6 samples.

Results

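Cytosine methylation in Arabidopsis thaliana is set and removed by a small group of enzymes, and their transcripts were measured here in whole seeds. The set holds 10 genes listed by locus identifier, of 33323 loci in the deposited table, and the rule that lists them uses no measured value. They are MET1 (AT5G49160), CMT3 (AT1G69770), CMT2 (AT4G19020), DRM2 (AT5G14620), VIM1 (AT1G57820), DDM1 (AT5G66750), NRPE1 (AT2G40030), RDR2 (AT4G11130), DME (AT5G04560) and ROS1 (AT2G36490). Seeds 6 days after pollination were taken from self-pollinated plants carrying DD25::IaaH (3 libraries) and from wild type (WT) plants (3 libraries), and the labels give Col-0 as the background of both. IaaH, a bacterial enzyme, hydrolyses an amide precursor into auxin, and it was placed behind the DD25 promoter. The labels say neither where the DD25 promoter is active nor how many transformed lines were used, and the title names auxin and the formation of cells in the endosperm as the subject. The design text calls the libraries biological replicates. The first digit of a locus identifier names its chromosome.

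Plants methylate cytosine in CG, CHG and CHH contexts, where H is any base but G. MET1 copies CG methylation after replication with the help of VIM proteins, CMT3 and CMT2 act where histone H3 is methylated, and DRM2 is guided by small RNAs in RNA-directed DNA methylation. DME and ROS1 are DNA glycosylases that cut out methylated cytosine. In the central cell, from which the endosperm grows, DME removes methylation from the maternal genome and so prepares the imprinting of genes. ROS1 acts in many tissues, and its own transcription is known to be lower in mutants that lose methylation.

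Libraries differed in ways that the genotype does not name. Values are in RPKM, read counts scaled to the length of the gene and the size of the library. The depth rebuilt from them ran from 6.495 M reads in DD25::IaaH 2 to 17.8 M reads in WT 1, and the 10 genes had between 147 and 2668 reads in a library. Reads fell on 79.1% and 61.2% of annotated pseudogenes in WT 1 and WT 2, against 23.3% to 33.9% in the other 4 libraries. With each library's median pseudogene level subtracted, ROS1 and CMT2 kept their calls. The subtracted level was 0.207 RPKM in WT 1, 0.09 RPKM in WT 2 and 0 RPKM in the other libraries. That is too little beside the levels of ROS1 and CMT2 to change their calls, so the step cannot show whether they depend on background. Near-absent in DD25::IaaH seeds were 81 genes. Each had at least 3 RPKM in all WT libraries, and in no DD25::IaaH library did it reach the lowest WT value divided by 15. They span ranges on chromosomes 2 to 5, which hold 34.6% of all tested genes and 47.65% of all called genes (1490 of 3127). Inside them 11.9% of tested genes were lower, against 3.99% outside. The 81 genes set the ends of the ranges and are counted inside, so part of this contrast follows from how the ranges were set. CMT2, MET1 and RDR2 lie inside these ranges, while ROS1 and the other 6 lie outside. The range on chromosome 4, where CMT2 and RDR2 lie, holds 2732 of the 3124 tested genes of that chromosome, so it is no narrow region. Of the 20 nearest tested genes, 2 were lower beside CMT2 and 1 beside ROS1. The labels give Col-0 for both genotypes, and whether the genomes are alike in these ranges was not tested. For genes inside and outside them alike, an effect of the transgene and another difference between the lines cannot be told apart.

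In DD25::IaaH seeds ROS1 and CMT2 fell, and the other 8 genes did not pass the test. ROS1 had 44.8% of its WT level and CMT2 59.03%. DME, the other glycosylase, had 95.1% of its WT level, and MET1 had 92.7%. Of all 20880 tested genes, 6.72% were called lower, 8.25% higher and 15% in either direction, at an adjusted p under 0.05 in limma with Benjamini-Hochberg adjustment. Of the 10 genes, all tested, 2 were called lower and 0 higher, and 0 were higher also at an unadjusted p under 0.05 and with limma's voom on rebuilt reads. Shares differed with transcript length, and all 10 genes have annotated transcripts of over 2 kb. Among tested genes of 2 to 4 kb 5.12% were lower and 4.08% higher, and among those of 4 kb and over 4.67% and 1.26%. So few genes as the 10 give no firm share to set beside these.

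A whole seed holds embryo, endosperm and seed coat, and in such bulk RNA fewer cells of a type and less RNA per cell cannot be told apart. Of 9 endosperm markers 6 were higher in DD25::IaaH and 0 lower, 0 also at an unadjusted p under 0.05 and with voom. Their summed level was 163 to 202 RPKM in DD25::IaaH and 41.6 to 48.3 RPKM in WT. The rise of this sum lay mainly in PHE1, CKX2 and MPC. Their means were 76.5, 30.7 and 29.2 RPKM in DD25::IaaH, against 3.50, 1.68 and 1.89 RPKM in WT. ZOU, the highest of the list in WT, had 28.8 RPKM in DD25::IaaH and 33.5 RPKM in WT and did not pass. Of the 9 endosperm markers 2 had a negative log2 fold change. A sum led by few genes gives no amount of tissue. Of 7 tested embryo markers 1 was lower (WOX9), and the sum over the embryo list was 214 to 238 RPKM in DD25::IaaH and 237 to 269 RPKM in WT. Of 9 seed coat markers 3 were higher and 1 lower, with sums of 1690 to 1782 RPKM in DD25::IaaH and 1682 to 1925 RPKM in WT. At an unadjusted p under 0.05, 4 were higher and 2 lower, and with voom 3 and 2. Large moves in opposite directions lie within these sums. BAN averaged 835 RPKM in DD25::IaaH and 499 RPKM in WT, and TT10 259 RPKM and 578 RPKM. The embryo marker DRN was listed at 0 in all WT libraries and in DD25::IaaH 2, WOX2 at 0 in DD25::IaaH 2, and the endosperm marker MINI3 at 0 in WT 2 and WT 3. The part of these tissues in the change of ROS1 and CMT2 was not tested.

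The letters upstream of the 2 glycosylase genes are shown because ROS1 was called lower and DME was not. Each line gives the 250 bases before the annotated gene start on the coding strand, from RefSeq's TAIR10.1, the release whose nuclear chromosomes are those of TAIR10. ROS1 is read from the minus strand of chr2:15314808-15315057 and DME from the plus strand of chr5:1308849-1309098. Capitals mark an E2F-type word, TTTCCCGC, as bound by the cell-cycle factors of the E2F family.
ROS1: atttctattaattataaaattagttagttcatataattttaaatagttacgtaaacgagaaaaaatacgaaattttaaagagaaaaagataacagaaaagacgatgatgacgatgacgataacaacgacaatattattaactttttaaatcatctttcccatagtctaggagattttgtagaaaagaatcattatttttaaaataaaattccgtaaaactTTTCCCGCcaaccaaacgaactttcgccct
DME: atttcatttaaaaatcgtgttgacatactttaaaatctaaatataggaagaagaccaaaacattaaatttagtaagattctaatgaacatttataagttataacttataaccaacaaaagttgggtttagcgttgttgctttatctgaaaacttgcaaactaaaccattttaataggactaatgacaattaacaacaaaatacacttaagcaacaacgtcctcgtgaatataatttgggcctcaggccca

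The ROS1 word starts 30 bases before the gene start. The words searched were TTTCCCGC, TTTGGCGC, TTTGCCGC and TTTCGCGC on both strands. ROS1 was the 1 gene of the 10 with such a word in this window, against 1.41% of 27443 promoters of protein-coding genes. Only exact copies were counted. Forms that differ from a searched word in 1 letter were not counted, and the windows of CMT2, MET1 and DDM1 are among those that hold such a form. Of 13 S-phase genes, 6 held a searched word (MCM2 to MCM6 and ICU2), and none of these passed the test between genotypes. The S-phase genes that passed, MCM7, RNR2A and CDC45, held none. ROS3, of the demethylation list, holds TTTCCCGC too and had a log2 fold change of -0.0077, with a limma adjusted p of 0.978. The ROS3 window overlaps another gene, AT5G58140. A part of the word in the fall of ROS1 was not tested. The shorter word AACGG, found in promoters of mitotic genes, was present before MET1 and RDR2 and in 20.6% of all promoters. The windows of RDR2, CMT2 and DDM1 also overlap other genes (AT4G11120, AT4G19010 and AT5G66740). A match describes the letters and is no evidence of binding.

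ROS1 had 13.3, 19.1 and 12.8 RPKM in DD25::IaaH 1 to 3, against 31.8, 34.0 and 35.1 RPKM in WT 1 to 3. Every DD25::IaaH library lay below every WT library, and DD25::IaaH 2 was the highest of its group. The means were 15.1 ± 3.52 RPKM in DD25::IaaH and 33.6 ± 1.65 RPKM in WT (SD, n = 3 each), and the log2 fold change, DD25::IaaH minus WT on the scale log2(RPKM + 0.5), was -1.16 ± 0.17 (SE) with a limma adjusted p of 0.00184. Reads rebuilt from the RPKM values were 674, 585 and 548 in DD25::IaaH and 2668, 1435 and 1588 in WT. The call was lost when WT 1 and WT 2 were both left out, with a log2 fold change of -1.22 and an adjusted p of 0.0671. WT then has 1 library, which is assumed to vary like the DD25::IaaH libraries, here and wherever both are left out.

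DME, which acts in the central cell, had 10.7, 14.1 and 10.1 RPKM in DD25::IaaH 1 to 3 and 10.8, 13.2 and 12.7 RPKM in WT 1 to 3. The groups overlapped, and the log2 fold change was -0.08 ± 0.17 (SE) with a limma adjusted p of 0.811. The ratio of ROS1 to DME within a library, which no scale factor of a library can change, was 1.25, 1.36 and 1.26 in DD25::IaaH and 2.95, 2.58 and 2.76 in WT. The 2 groups of ratios stood apart, with an exact two-sided permutation p of 0.1, the smallest that 3 against 3 allows. The ratio of ROS1 to MET1 averaged 1.29 ± 0.051 in DD25::IaaH and 2.73 ± 0.416 in WT (SD, n = 3 each), with the same exact permutation p of 0.1. These and 2 other gene pairs were picked after the levels had been seen. Adjusted over the 4 ratios computed, each permutation p was again 0.1. That adjustment leaves out the pairs not picked, so these p-values give no support beyond the levels themselves.

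**Figure D1:**
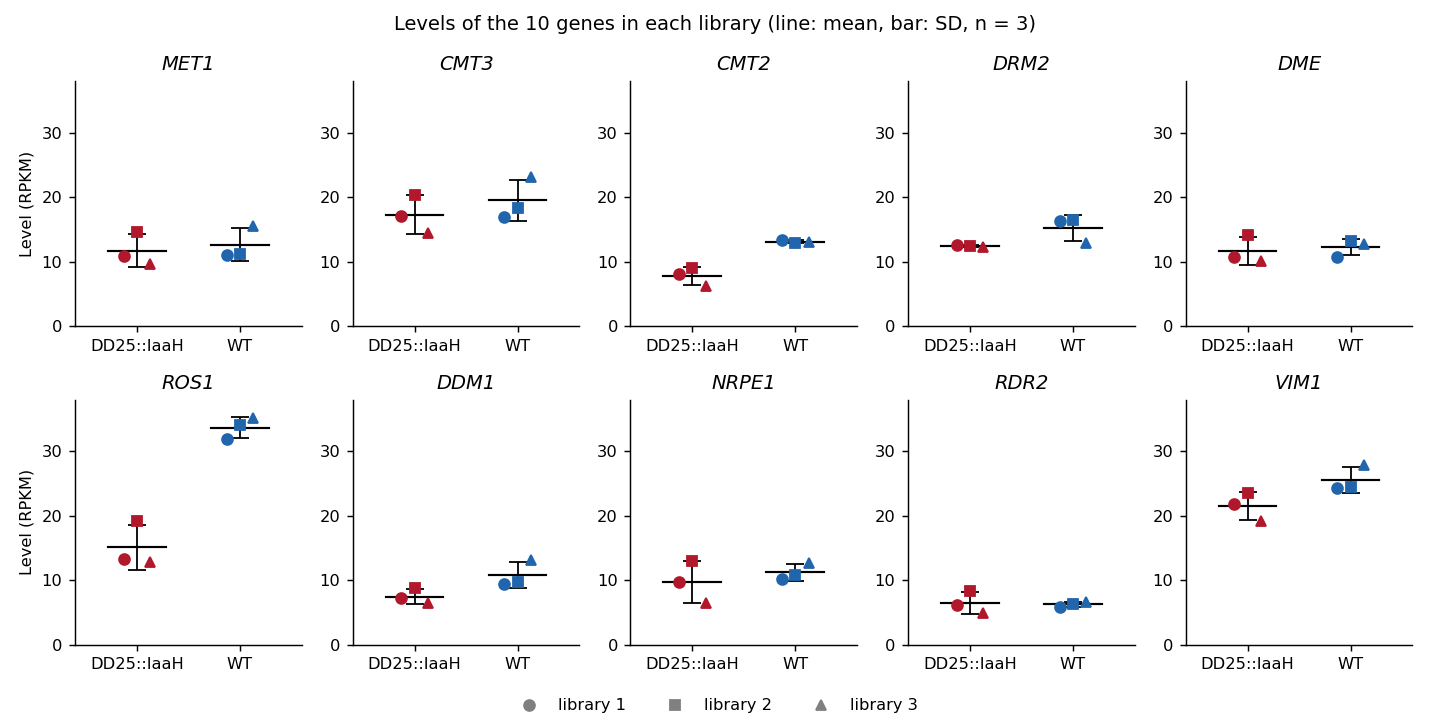
Level of each of the 10 genes in RPKM (vertical axis, from 0) in the 3 DD25::IaaH libraries (red, left) and the 3 WT libraries (blue, right), with the mean as a line and the SD as a bar. ROS1 lies at 12.8 to 19.1 RPKM in DD25::IaaH and at 31.8 to 35.1 RPKM in WT, while MET1 and DME overlap between the groups.

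CMT2, the chromomethylase that acts mostly on CHH sites of long transposons, had 8.05, 8.95 and 6.20 RPKM in DD25::IaaH 1 to 3. In WT 1 to 3 it had 13.4, 12.9 and 13.01 RPKM. The groups did not overlap, and the WT libraries lay close together. The means were 7.74 ± 1.40 RPKM in DD25::IaaH and 13.1 ± 0.252 RPKM in WT (SD, n = 3 each), a log2 fold change of -0.74 ± 0.16 (SE) with a limma adjusted p of 0.0171. The call was lost without DD25::IaaH 3 (adjusted p 0.05002), without WT 1 (0.0603), without WT 2 (0.0561), without both WT libraries (0.231) and without the filter on low values (0.0572), with log2 fold changes from -0.75 to -0.60.

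CMT3, the chromomethylase of CHG sites, had 17.1, 20.4 and 14.4 RPKM in DD25::IaaH and 17.0, 18.4 and 23.1 RPKM in WT. Its groups overlapped, and its log2 fold change was -0.17 ± 0.17 (SE), with a limma adjusted p of 0.577. The ratio of CMT2 to CMT3 within a library was 0.471, 0.439 and 0.431 in DD25::IaaH and 0.789, 0.704 and 0.563 in WT. These ratios stood apart too, with an exact permutation p of 0.1 (two-sided), and WT 3 came nearest to the DD25::IaaH libraries.

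MET1, the maintenance enzyme of CG methylation, had 10.8, 14.6 and 9.64 RPKM in DD25::IaaH and 11.04, 11.2 and 15.6 RPKM in WT. In each group 1 library stood above the other 2, and the groups overlapped. The log2 fold change was -0.11 ± 0.20 (SE), with a limma adjusted p of 0.778. VIM1, which brings MET1 to hemimethylated DNA after replication, averaged 21.5 ± 2.19 RPKM in DD25::IaaH and 25.5 ± 2.07 RPKM in WT (SD, n = 3 each). Its highest DD25::IaaH library, at 23.5 RPKM, lay below its lowest WT library, at 24.2 RPKM, and its log2 fold change of -0.24 did not pass (limma adjusted p 0.266).

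DDM1, the chromatin remodeller that opens heterochromatin to the methyltransferases, had 7.20, 8.71 and 6.39 RPKM in DD25::IaaH and 9.44, 9.68 and 13.1 RPKM in WT. The groups did not overlap, and the log2 fold change of -0.50 ± 0.19 (SE) had an unadjusted p of 0.0257 and an adjusted p of 0.114 in limma. Over the alternatives its adjusted p ranged from 0.0727 to 0.277. The ratio of DDM1 to MET1 was 0.666, 0.597 and 0.663 in DD25::IaaH and 0.855, 0.865 and 0.842 in WT, with an exact permutation p of 0.1 (two-sided).

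DRM2, the methyltransferase of new methylation, had 12.6, 12.4 and 12.3 RPKM in DD25::IaaH and 16.3, 16.4 and 12.8 RPKM in WT. The groups did not overlap, but WT 3 lay close to the DD25::IaaH libraries, and the log2 fold change of -0.27 ± 0.14 (SE) had a limma adjusted p of 0.264. NRPE1, the largest subunit of RNA polymerase V, averaged 9.73 ± 3.26 RPKM in DD25::IaaH and 11.2 ± 1.27 RPKM in WT (SD, n = 3 each). RDR2, the RNA-dependent RNA polymerase that makes the double-stranded precursors of small RNAs, averaged 6.47 ± 1.72 RPKM in DD25::IaaH and 6.27 ± 0.391 RPKM in WT (SD, n = 3 each). Both overlapped between the groups and did not pass, with limma adjusted p of 0.555 and 0.976. The sign of RDR2 turned under median-of-ratios and quantile scaling.

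**Figure D2:**
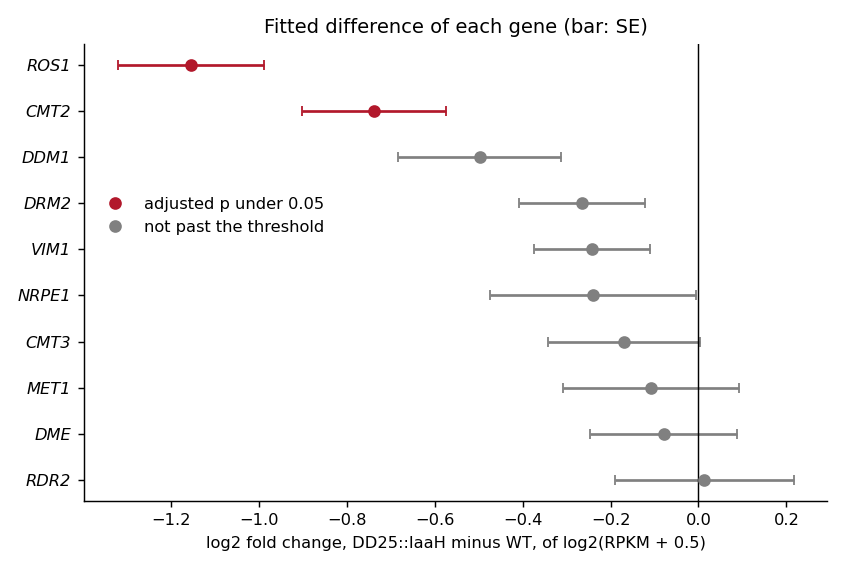
Fitted log2 fold change, DD25::IaaH minus WT, on the log2(RPKM + 0.5) scale (horizontal axis), with its SE as a bar, for each of the 10 genes. ROS1 at -1.16 and CMT2 at -0.74 pass the threshold, and DDM1 at -0.50 does not.

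As a group, 9 of the 10 genes had a negative log2 fold change, with a median of -0.24, beside a median of 0.03 and 46.5% negative over all tested genes. In the length classes of the 10 genes, the median was 0.006 for all tested genes of 2 to 4 kb and -0.05 for those of 4 kb and over. Without DD25::IaaH 3, 6 of the 10 were negative with a median of -0.11, without WT 3 it was 8 of 10, and with the length trend removed 7 of 10. With WT 1 and WT 2 left out the median was -0.42. Groups did not overlap for 5 of the 10 (ROS1, CMT2, DDM1, DRM2 and VIM1), against 33.3% of all tested genes. The order of levels differed in its top place and lower down, where CMT2 had rank 5 in WT and rank 8 in DD25::IaaH. In both genotypes CMT2 overlapped with its neighbours in the order. In DD25::IaaH seeds VIM1 and CMT3 led and ROS1 came next, and VIM1 and CMT3 overlapped, as did CMT3 and ROS1. Of the lower places only ROS1 and DRM2 did not overlap. In WT seeds ROS1 led, above VIM1, CMT3 and DRM2, with no overlap between neighbours down to DRM2. RDR2 was the lowest of the 10 in both genotypes, and in WT it did not overlap with DDM1 above it.

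**Figure D3:**
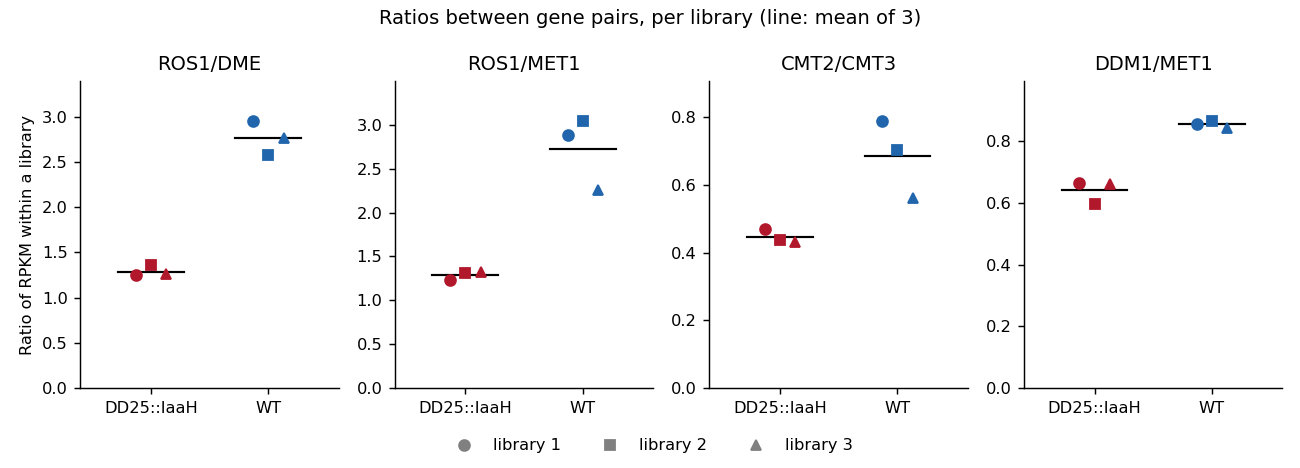
Ratio of RPKM values between gene pairs within each library (vertical axes, from 0), with DD25::IaaH in red on the left, WT in blue on the right and the mean of 3 as a line. ROS1/DME lies at 1.25 to 1.36 in DD25::IaaH and at 2.58 to 2.95 in WT.

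The 10 genes moved together between libraries of a genotype. DD25::IaaH 2 was the highest of its group for 9 of them and DD25::IaaH 3 the lowest for all 10, while WT 3 was the highest for 7 and WT 1 the lowest for 8. Their annotated transcripts are long, from 2331 to 6963 bases. The median deviation from the group mean, on the log2 scale, was 0.26 in DD25::IaaH 2 and -0.22 in DD25::IaaH 3 for the 10 genes. For all 792 tested genes of 4 kb and over it was 0.20 and -0.22 in these libraries, and for the 5 of the 10 in that class 0.33 and -0.24. For all 6251 tested genes of 2 to 4 kb it was only 0.05 and -0.09, while the other 5 of the 10, which fall in that class, had 0.23 and -0.19. Genes under 1 kb had -0.08 and 0.11 in the same libraries. With each library's length trend removed, an alternative chosen after these values were seen, ROS1 and CMT2 had log2 fold changes of -1.04 and -0.64 and limma adjusted p of 0.000807 and 0.0115, while MET1 and DME turned to 0.01 and 0.06.

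**Figure D4:**
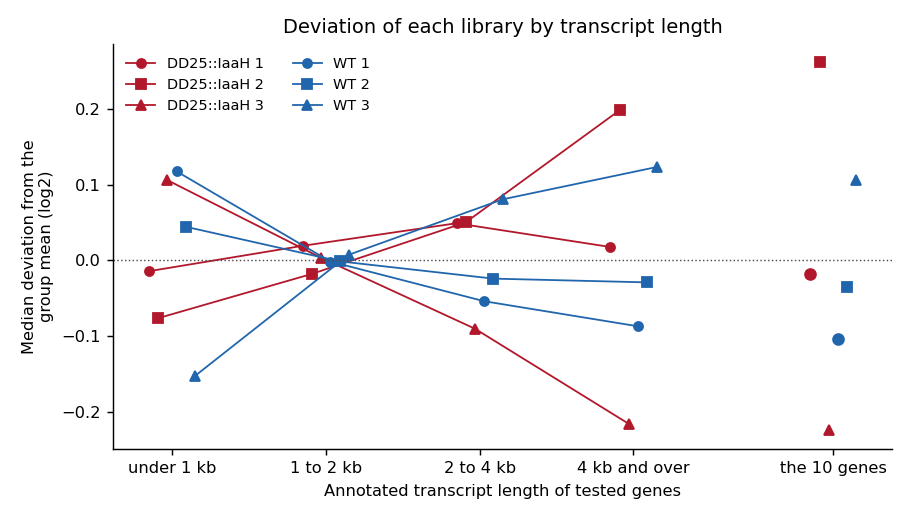
Median deviation of each library from its group mean (log2, vertical axis) for tested genes in 4 classes of annotated transcript length, and for the 10 genes at the right; DD25::IaaH libraries are red and WT libraries blue. DD25::IaaH 2 and DD25::IaaH 3 part to 0.20 and -0.22 in the longest class, to 0.05 and -0.09 in the class of 2 to 4 kb and to 0.26 and -0.22 for the 10 genes.

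Over the 6 libraries, the genes most like MET1 in log2 level were AT5G35560, NHX2 and CLASP, with Pearson r of 0.997, 0.996 and 0.992 among 19318 genes. For DME they were AT4G12010, AT2G35742 and ICME-LIKE1, with r of 0.990, 0.985 and 0.982. With 6 libraries and so many genes, such values describe these libraries only.

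Other genes of the pathway were read from lists of 61 genes, of which 58 were kept and 56 tested, and 2 rose, 7 fell and 47 did not pass. These 9 calls among 56 stand beside 15% of all tested genes, and the list median was -0.04, against 0.03. Of 24 tested genes of RNA-directed DNA methylation, 6 fell, 1 rose and 17 did not pass, with a list median of -0.18. Of 12 tested genes of demethylation besides DME and ROS1, 0 passed, 1 had an unadjusted p under 0.05 and 0 passed with voom. IDM1 and IDM2, which help ROS1 reach its targets, had log2 fold changes of -0.41 and -0.40 and limma adjusted p of 0.222 and 0.237. AT1G20870 had 0.60 with 0.110, and the histone chaperone gene SPT16 had -0.18 with 0.410. DML2, a glycosylase related to ROS1, had 13.6, 14.6 and 10.2 RPKM in DD25::IaaH and 12.1, 12.9 and 14.4 RPKM in WT.

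Among the genes of RNA-directed DNA methylation, NRPD4, a subunit shared by RNA polymerases IV and V, fell most. It had 9.48, 9.84 and 8.37 RPKM in DD25::IaaH and 30.8, 36.5 and 31.3 RPKM in WT, a log2 fold change of -1.78 ± 0.13 (SE) with a limma adjusted p of 4.11e-05. The groups stood far apart, and NRPD4 stayed past the threshold under every alternative run, with a highest adjusted p of 0.00722. Inside the ranges of near-absent genes lie 6 of the 9 called pathway genes, NRPD4 among them, and 24 of the 56 tested. Of its 20 nearest tested genes 3 were lower, as beside SUVH9. IDN2, an RNA-binding protein of the pathway, averaged 33.6 ± 0.434 RPKM in DD25::IaaH and 53.3 ± 6.18 RPKM in WT (SD, n = 3 each), with a limma adjusted p of 0.00726, and 0.133 with WT 1 and WT 2 both left out. SUVH9, which recruits RNA polymerase V to methylated DNA, averaged 8.33 ± 1.40 RPKM in DD25::IaaH and 13.1 ± 0.721 RPKM in WT (SD, n = 3 each).

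A further 4 genes of this list passed. RDM1, of the complex that assists RNA polymerase V, averaged 28.8 ± 0.628 RPKM in DD25::IaaH and 38.7 ± 0.541 RPKM in WT (SD, n = 3 each). It overlaps AT3G22670 on the opposite strand over 1899 bases, and with no strand setting given, reads of the pair cannot be told apart. The partner had 4.46, 4.92 and 5.14 RPKM in DD25::IaaH and 4.76, 4.63 and 4.44 RPKM in WT. DCL3, which cuts the small RNAs and has 8 lower genes among its 20 nearest, averaged 1.90 ± 0.0918 RPKM in DD25::IaaH and 3.54 ± 0.150 RPKM in WT (SD, n = 3 each). FDM1, a relative of IDN2, averaged 45.1 ± 0.856 RPKM in DD25::IaaH and 63.2 ± 9.28 RPKM in WT (SD, n = 3 each). SHH1, which brings RNA polymerase IV to chromatin, rose, with 13.2 ± 0.696 RPKM in DD25::IaaH and 8.61 ± 1.29 RPKM in WT (SD, n = 3 each). In limma the adjusted p of SUVH9, RDM1, DCL3, FDM1 and SHH1 were 0.0308, 0.0294, 0.0352, 0.0452 and 0.0319. Each of these 5 lost its call without WT 1, without WT 2, without DD25::IaaH 2, without DD25::IaaH 3 and with the replicate block. All but SUVH9 also lost it without DD25::IaaH 1. Of 18 alternatives, the call was lost under 8 for RDM1 and SUVH9, 9 for SHH1 and DCL3 and 10 for FDM1.

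Of 5 other tested methyltransferase genes, DMT2, a relative of MET1, fell to 2.49 ± 0.204 RPKM in DD25::IaaH, against 4.48 ± 0.338 RPKM in WT (SD, n = 3 each), with a limma adjusted p of 0.0305. MEE57, DRM1 and DRM3 had log2 fold changes of 0.57, 0.29 and -0.12 and did not pass. DMT2 lost its call without each of the 6 libraries in turn. Of 15 VIM family and maintenance genes, VIM5 rose, with 24.4 ± 4.31 RPKM in DD25::IaaH and 16.7 ± 0.528 RPKM in WT (SD, n = 3 each). Its limma adjusted p was 0.0483, and it was lost under 13 of 18 alternatives. VIM4, VIM2 and the methionine cycle gene MAT4 had log2 fold changes of 0.62, 0.35 and 0.42 and did not pass. VIM2 and VIM4 share 1207 windows of 125 bases, 57.4% of those of VIM2 and 63.4% of those of VIM4, and MAT4 shares 18.4% of its windows with another locus, so the values of these 3 genes are uncertain. None of the 10 genes shared a 125-base window with another annotated transcript, and none overlapped another gene.

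**Figure D5:**
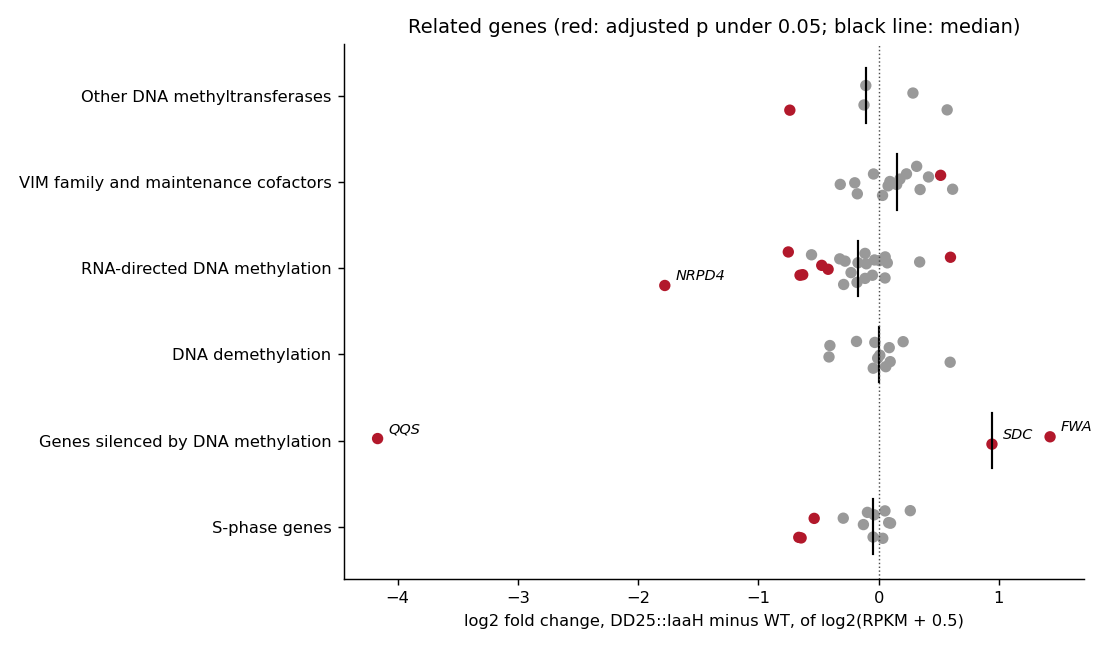
Log2 fold change, DD25::IaaH minus WT, on the log2(RPKM + 0.5) scale (horizontal axis) of the tested genes in 6 lists, each point 1 gene, spread vertically for display, with the list median as a black line. NRPD4 lies at -1.78 among the genes of RNA-directed DNA methylation, and SDC at 0.94 and FWA at 1.43 lie opposite to QQS, whose place at -4.17 depends on the pseudocount (-5.49 with 0.1 RPKM, -3.48 with 1 RPKM).

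Genes known to be silenced by DNA methylation moved in both directions. FWA, a homeodomain gene expressed from its maternal copy in the endosperm, had 12.9, 7.04 and 6.78 RPKM in DD25::IaaH and 2.18, 2.01 and 5.14 RPKM in WT, with a limma adjusted p of 0.0280. SDC, an F-box gene that is silenced in most tissues, had 39.4, 33.4 and 34.9 RPKM in DD25::IaaH and 15.3, 17.5 and 23.2 RPKM in WT, with a limma adjusted p of 0.00560. Both rose, without overlap between the groups. SDC lies over AT2G17695 on the opposite strand for 1303 bases, so reads of that pair cannot be told apart either. That partner had 14.4, 11.3 and 16.9 RPKM in DD25::IaaH and 11.96, 17.5 and 9.39 RPKM in WT. Without WT 1 and WT 2 the adjusted p of SDC was 0.124, and without the filter it was 0.05035. FWA lost its call when any library but WT 3 was left out, without the filter and without the variance trend, and had 0.68 on the log2 scale without WT 1 and WT 2. QQS, a small gene whose methylation varies among natural strains, had 0.159, 1.05 and 0 RPKM in DD25::IaaH, from 1, 4 and 0 reads, and 12.8, 15.8 and 13.1 RPKM in WT. FWA and QQS lie inside the ranges of near-absent genes. The fall of QQS kept its call under every alternative run, with a limma adjusted p of 0.000137.

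Of 13 S-phase genes, 3 fell (RNR2A, MCM7 and CDC45) and 10 did not pass, with a list median of -0.05. RNR2A, MCM7 and CDC45 had log2 fold changes of -0.64, -0.54 and -0.66, with limma adjusted p of 0.0108, 0.0371 and 0.0416. Without WT 1 and WT 2 these became 0.189, 0.0778 and 0.258. CDC45 also lost its call without each library in turn (0.0575 to 0.135), MCM7 without each but WT 2 (0.0683 to 0.109), and RNR2A without DD25::IaaH 1 (0.05035). TSO2, a ribonucleotide reductase subunit, had -0.29 with a limma adjusted p of 0.155. The 3 called genes lie inside the ranges of near-absent genes, as do 5 of the 13 tested. Of the 20 nearest tested genes, 8 were lower beside CDC45, 3 beside MCM7 and 2 beside RNR2A, and MCM7 overlaps AT4G02050 on the opposite strand over 437 bases and RNR2A AT3G23570 over 153 bases.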

How the data were processed

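Polyadenylated RNA of whole seeds was sequenced in 3 DD25::IaaH and 3 WT libraries with paired 125-base reads, per the labels' protocols. TopHat2 2.1.0 and TAIR10 are named in the submitters' processing notes, the counting tool and its strand setting in none of the sources used here. The authors deposited RPKM values for 33323 loci, of which 32835 matched RefSeq's TAIR10.1 gene table. Depth was rebuilt from the steps between RPKM values. Of 31196 loci, 99.25% gave reads within 0.02 of whole numbers at a length between 0.5 and 1.5 times the annotated one, against 12.3% of 1000 loci with the steps shifted by 3%.

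The 20880 genes averaging 0.5 RPKM or more were tested on log2(RPKM + 0.5) with limma 3.58.1 in R 4.3.3, with a variance trend and genotype as the only term, and p-values were adjusted over all of them (Benjamini-Hochberg, threshold 0.05). Alternatives changed the pseudocount, filter, scaling, trend, replicate block, pseudogene background, length trend, unit (voom on rebuilt reads) and the libraries left out. Tested on simulated data, the script made more false calls than its threshold allows and missed most changes of a log2 fold of 1, so calls near the threshold are the least sure. The members and lists were chosen with earlier results of these data known. Named are all 10 genes, for each list but the cell type markers the called genes and the top 4 by adjusted p, and the 3 genes most like MET1 or DME. DML2, ROS3, MCM2 to MCM6, ICU2 and the cell type markers given by name were named after their values were seen. The length classes and ranges of near-absent genes were likewise set afterwards. From the lists, 3 genes with another name in the reference were left out.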

Additional observations from a re-analysis of the deposited data

How the results depend on the processing

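The count of called genes was 3127, and 1867 without the filter on low values, 1063 with WT 1 and WT 2 both left out, and 1912 to 4133 without each library in turn. Of the 10 genes 2 were called, and 1 without the filter, 1 to 2 without each library in turn, and 0 with both WT libraries left out, where 3 had an unadjusted p under 0.05 in limma. Of the other pathway genes 9 were called, and 5 with the length trend removed, 1 with both WT libraries left out, and 2 to 8 without each library in turn. Fewer libraries enter the fits that leave some out, and the cause of the other shifts was not tested. Signs turned only for genes that did not pass: the log2 fold change of RDR2, 0.01, became -0.0150 under median-of-ratios scaling, -0.0203 under quantile normalization, -0.0081 with voom and -0.0690 with both WT libraries left out. With the length trend removed, MET1 had 0.0086 and DME 0.0630. Without each library in turn RDR2 ranged from -0.1733 to 0.1737, NRPE1 from -0.4667 to 0.0076, MET1 from -0.2727 to 0.0479 and DME from -0.2177 to 0.0083.

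With the replicate number as a block, 2 of the 10 genes, 2 other pathway genes and 2429 of all genes were called. Same-numbered libraries of the 2 genotypes did not deviate together, with correlations of -0.0802, -0.0310 and -0.101, so the numbers are not taken as pairs. A floor of 3 reads on a gene of 1 kb was 0.169 to 0.462 RPKM and covers counting error only.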
